A study of Mus musculus with 6 samples.

Results

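The fibrillar collagens of types I, III, V and XI were followed through 7 genes, Col1a1, Col1a2, Col3a1, Col5a1, Col5a2, Col5a3 and Col11a1, taken by symbol from a table of 23412 mouse genes. RNA came from the ventral dermis of 6 mice aged 3 weeks, whose strain background was mixed (CD1 and C57BL/6), and was sequenced as 1 library per mouse. The 3 mutants carried CatnbΔex3/+, an allele whose exon 3 is lost after Cre recombination and which then encodes a stabilised beta-catenin, together with HoxB6CreERT/+ and R26-YFP/+. The 3 littermate controls carried HoxB6CreERT/+ and R26-YFP/+ alone. All 6 were exposed to tamoxifen before birth, on embryonic day 16.5, through the mother. HoxB6CreERT is a tamoxifen-dependent Cre recombinase driven from Hoxb6, and R26-YFP is a fluorescent reporter of its activity, so the controls share the recombinase, the reporter and the drug. Which share of the dermal cells had recombined is not known here. The dermis was freed of epidermis with trypsin and lysed whole, so each value is a mixture over all cells left in it. The comparison asks how mRNA levels of the fibril-forming chains differ in dermis with activated beta-catenin, a state that the study's title links to skin fibrosis.

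Fibrillar collagens are triple helices of 3 chains that line up, staggered, into the banded fibrils that give dermis its tensile strength. Type I, built from the chains of Col1a1 and Col1a2, is the bulk of the dermal fibril, and type III, built from Col3a1 chains alone, is woven into the same fibrils and is prominent in young skin. Types V and XI are minor partners that start fibrils and limit their width, and in humans mutations of COL5A1 or COL5A2 cause classical Ehlers-Danlos syndrome, with fragile and stretchable skin. Dermal fibroblasts make nearly all of these chains in skin, whereas type XI is best known from cartilage.

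Levels are given as FPKM, the number of fragments of a gene scaled by its length and by the depth of the library, which allows levels of different genes to be set side by side. The whole reads behind the values could be recovered, and the reads in genes came to 13520883, 11874290 and 12603467 in mutants 1 to 3 and to 9706741, 7825150 and 8958682 in controls 1 to 3. Ctnnb1, the gene engineered in the mutants, stood at 193, 136 and 168 FPKM in the mutants and at 201, 163 and 183 FPKM in the controls (log2 difference -0.15, limma adjusted p = 0.895). A value for the whole gene does not show the loss of 1 exon, so it checks neither genotype nor labels. Library sex was not balanced. Xist, transcribed from the inactive X chromosome, was at 0.0827, 6.47 and 0.184 FPKM in mutants 1 to 3, and at 55.5, 66.2 and 0.172 FPKM in controls 1 to 3. The Y-linked gene Ddx3y was at 13.2 to 19.1 FPKM in the mutants and at 15.6 FPKM in control 3, but at 0.0127 and 0.0136 FPKM in controls 1 and 2. Control 3 was therefore the only control with the mutants' pattern, low in Xist and with Ddx3y expressed. Mutant 2 had more Xist than control 3 or mutants 1 and 3, though far less than controls 1 and 2, and the reason was not tested. Values with and without control 3 are given for the results that rest on it.

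The region just upstream of a gene's start is where the general transcription machinery assembles. Since the 7 genes varied together over the 6 libraries, the 250 bases before the start of transcription are shown for 1 gene of type I, for that of type III and for an abundant and a rare chain of type V. They are RefSeq sequences (GRCm38.p6), read 5′ to 3′ on the gene's strand, and the table held 5 of the 7 genes (Col1a2, Col3a1, Col5a1, Col5a3 and Col11a1). Capitals mark matches, on either strand, to CCAAT (the CCAAT box), TATAAA (the TATA box), GGGCGG (the GC box bound by Sp1-type factors) and CTTTGA (the core of the site bound by TCF/LEF factors, the DNA-binding partners of beta-catenin).
Col1a2, chr6:4505368-4505617 (+): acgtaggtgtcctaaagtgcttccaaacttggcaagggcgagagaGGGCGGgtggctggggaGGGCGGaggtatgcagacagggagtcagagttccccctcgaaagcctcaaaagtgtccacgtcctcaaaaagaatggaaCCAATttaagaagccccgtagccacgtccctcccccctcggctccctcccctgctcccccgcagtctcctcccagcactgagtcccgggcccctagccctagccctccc
Col3a1, chr1:45311288-45311537 (+): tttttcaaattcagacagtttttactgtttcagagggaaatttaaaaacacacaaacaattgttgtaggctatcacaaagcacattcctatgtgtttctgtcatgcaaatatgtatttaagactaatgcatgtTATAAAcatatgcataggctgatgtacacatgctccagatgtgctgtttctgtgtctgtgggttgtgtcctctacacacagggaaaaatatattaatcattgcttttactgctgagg
Col5a1, chr2:27886175-27886424 (+): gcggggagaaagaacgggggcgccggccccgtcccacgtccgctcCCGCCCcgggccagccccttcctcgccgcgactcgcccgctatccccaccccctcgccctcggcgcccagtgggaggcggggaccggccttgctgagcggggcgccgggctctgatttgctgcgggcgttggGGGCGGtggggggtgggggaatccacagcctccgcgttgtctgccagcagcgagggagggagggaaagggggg
Col5a3, chr9:20815068-20815317 (-): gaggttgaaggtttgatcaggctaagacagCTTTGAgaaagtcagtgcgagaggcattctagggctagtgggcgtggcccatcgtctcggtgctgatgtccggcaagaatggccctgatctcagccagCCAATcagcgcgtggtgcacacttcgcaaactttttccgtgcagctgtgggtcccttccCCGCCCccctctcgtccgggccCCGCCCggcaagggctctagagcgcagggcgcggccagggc
The window of Col3a1 stood apart from the other 4 in base composition and motifs. GC content was 62.0% in Col1a2, 35.2% in Col3a1, 76.4% in Col5a1, 62.8% in Col5a3 and 62.4% in Col11a1, against a median of 52.0% over 27025 mouse promoter windows of the same length. CCAAT, found in 34.5% of all windows, was in Col1a2, Col5a3 and Col11a1. The match in Col1a2 began 109 bases before the start, that in Col5a3 122 bases and that in Col11a1 79 bases before it. TATAAA, found in 13.0% of all windows, was in Col3a1 alone among the 5 and began 117 bases before its start. GGGCGG, found in 32.9%, had 2 matches in each of the 5 windows except that of Col3a1, which had none. CTTTGA, found in 14.0%, had 1 match among the 5, in Col5a3 and 220 bases before its start. A match describes letters and not a bound site. The RefSeq start of Col1a2 lies inside the gene as GENCODE draws it, so its window overlaps the annotated gene there.

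In both groups the 7 genes fell into 3 tiers of level. Col1a1, Col1a2 and Col3a1 stood at 705.1 to 4815 FPKM and were among the 18 most abundant of all genes in every library. Col5a1 and Col5a2 stood at 35.9 to 181 FPKM, and Col5a3 and Col11a1 at 8.81 to 23.0 FPKM. Averages of all 7 were higher in mutant than in control dermis, by 0.43 to 1.12 on the log2(FPKM + 1) scale, yet none passed the test. The 3 controls differed among themselves by up to 5.28-fold, and control 3 lay above at least 1 mutant in Col1a1, Col1a2 and Col5a3.

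Type I comes first, as the main fibril chain. Col1a1 (chr11:94936224-94953042, plus strand of GRCm38, 51 exons in its longest GENCODE M21 transcript) encodes the alpha1 chain, of which the usual type I molecule holds a pair. Its level was 3927, 3318 and 3180 FPKM in mutants 1 to 3, against 1646, 851.5 and 4494 FPKM in controls 1 to 3. The groups overlapped, because control 3 had the highest level of all 6 libraries while the other controls lay below every mutant. The group means were 3475 ± 397.4 FPKM in mutants and 2331 ± 1916 FPKM in controls (SD, n = 3 each). The log2 difference was 0.91, with a 95% interval from -0.48 to 2.29 (limma adjusted p = 0.682). Single controls carried much of this value: without control 2, the lowest, the difference was 0.35, and without control 3 it was 1.55 (limma adjusted p = 0.9996 and 0.262). A fit with library sex as a covariate, which compares the mutants with control 3 alone, gave -0.38. Its values rest on 317847 to 361015 reads in the mutants and on 63451 to 315574 reads in the controls, so counting error is small beside the differences among mice.

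Col1a2 (chr6:4504814-4541544, plus strand, 52 exons) encodes the alpha2 chain, the other partner of the type I molecule. It stood at 3754, 2608 and 2572 FPKM in mutants 1 to 3, against 1323, 705.1 and 2817 FPKM in controls 1 to 3. Control 3 lay above mutants 2 and 3, and the remaining controls lay below all mutants. The means were 2978 ± 672.4 FPKM in mutants and 1615 ± 1086 FPKM in controls (SD, n = 3 each). The log2 difference was 1.09 (95% interval -0.16 to 2.33, limma adjusted p = 0.523). This was 0.60 without control 2, 1.60 without control 3, and with library sex as a covariate 0.06.

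Col3a1 (chr1:45311538-45349706, plus strand, 51 exons) encodes the only chain of type III collagen. It had 4815, 2888 and 3033 FPKM in mutants 1 to 3, against 1690, 893.6 and 2723 FPKM in controls 1 to 3. All 3 mutants lay above all 3 controls, though control 3 was within a narrow margin of mutant 2. The means were 3579 ± 1073 FPKM in mutants and 1769 ± 917.3 FPKM in controls (SD, n = 3 each). The log2 difference was 1.12, the highest of the 7 genes, with a 95% interval of -0.07 to 2.31 (limma adjusted p = 0.480). It was 0.70 without control 2, 1.50 without control 3, and with library sex as a covariate 0.35.

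**Figure D1:**
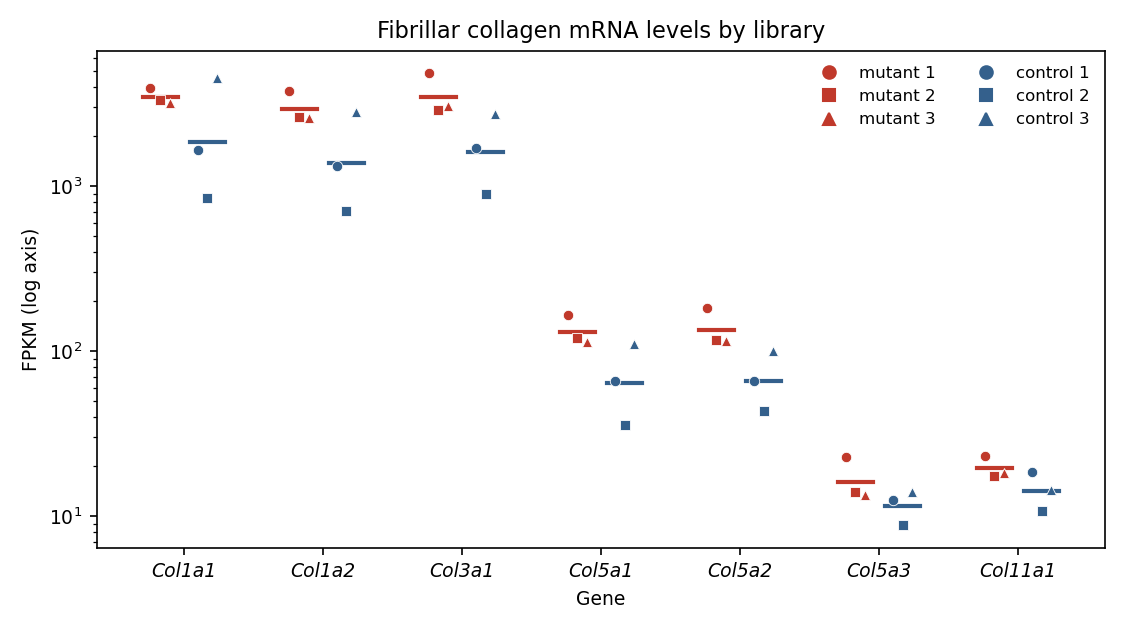
FPKM on a log axis of the 7 fibrillar collagen genes in each library, with mutants 1 to 3 in red left of controls 1 to 3 in blue and a horizontal line at each group's geometric mean. Control 2 is the lowest library for every gene, and control 3 lies within or above the mutants for Col1a1, Col1a2 and Col5a3.

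Type V collagen is nucleator and width limiter of the dermal fibril, and its common form joins a pair of Col5a1 chains to 1 Col5a2 chain. Col5a1 (chr2:27886425-28039514, plus strand, 66 exons) was at 164.2, 120.8 and 113.7 FPKM in mutants 1 to 3, against 65.5, 35.9 and 109.9 FPKM in controls 1 to 3. Again all mutants lay above all controls, with control 3 just below mutant 3. The means were 132.9 ± 27.4 FPKM in mutants and 70.4 ± 37.3 FPKM in controls (SD, n = 3 each). The log2 difference was 1.03, with a 95% interval of 0.21 to 1.84 that leaves out 0. Its limma adjusted p = 0.295 over all genes missed the threshold.

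Col5a2 (chr1:45374321-45503282, minus strand, 54 exons) lies 24614 bases from Col3a1, tail to tail with it. It was at 181.1, 116.1 and 115.3 FPKM in mutants 1 to 3, against 66.3, 43.3 and 99.5 FPKM in controls 1 to 3, and the groups were again separate. Means were 137.5 ± 37.8 FPKM in mutants and 69.7 ± 28.3 FPKM in controls (SD, n = 3 each). This gene came nearest to the threshold of the 7. Its log2 difference was 1.02 (95% interval 0.31 to 1.73), with a limma adjusted p = 0.239. Without control 2 the differences of Col5a1 and Col5a2 were 0.62 and 0.72. Without control 3 they were 1.42 and 1.31, with limma adjusted p = 0.0572 and 0.0695. In the fit with library sex they were 0.25 and 0.43.

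Col5a3 (chr9:20770050-20815067, minus strand, 67 exons) encodes the rarer alpha3 chain of type V. It was at 22.7, 13.9 and 13.4 FPKM in mutants 1 to 3, against 12.5, 8.81 and 14.0 FPKM in controls 1 to 3. Control 3 lay above mutants 2 and 3, so the groups overlapped. The means were 16.7 ± 5.20 FPKM in mutants and 11.8 ± 2.66 FPKM in controls (SD, n = 3 each). Its log2 difference was 0.46 (95% interval -0.05 to 0.96, limma adjusted p = 0.511). It was 0.23 without mutant 1, 0.28 without control 2, 0.58 without control 3 and 0.20 in the fit with library sex. It had the fewest reads of the 7, 1741 to 2701 in the mutants and 850 to 1294 in the controls.

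Col11a1 (chr3:114030540-114220718, plus strand, 67 exons) encodes the alpha1 chain of type XI, which can also pair with type V chains outside cartilage. It was at 23.0, 17.5 and 18.3 FPKM in mutants 1 to 3, against 18.4, 10.7 and 14.4 FPKM in controls 1 to 3. This gene broke the pattern among the controls, because control 1 and not control 3 was the highest of them. Means were 19.6 ± 3.00 FPKM in mutants and 14.5 ± 3.88 FPKM in controls (SD, n = 3 each), and the log2 difference was 0.43 (95% interval -0.02 to 0.88, limma adjusted p = 0.470). It was 0.61 without control 1, 0.24 without control 2, 0.44 without control 3 and 0.41 in the fit with library sex. The cartilage markers gave little RNA in either group: 4 of the 5 cartilage genes in the table were under 1 FPKM in every library, and their sum was 2.99 to 3.47 FPKM in mutants and 1.39 to 2.44 FPKM in controls. Of 7 bone markers 6 were under 1 FPKM in every library, and 1 was listed at 0 in all 6.

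Counted over the 7 genes, 0 of 7 passed an adjusted p of 0.05 with limma, and 2 of 7, Col5a1 and Col5a2, had an unadjusted p below 0.05. Over all 12560 genes tested, 18 passed as higher in mutants (0.143%) and 0 as lower (0.0%), with 1323 (10.5%) and 94 (0.748%) at an unadjusted p below 0.05. The count of 18 depended on single libraries. It was 8, 3 and 49 without mutants 1, 2 and 3, and 29, 11 and 189 without controls 1, 2 and 3. A limma-voom test on the recovered reads called 179 genes higher (1.43%) and 3 lower (0.0239%) and also 0 of the 7 collagens. Nor was any of the 7 among the 189 genes (1.5%) that limma called higher without control 3. All 7 differences were above 0, as were 71.3% of those of all genes. A log2 difference of at least 1 was reached by 4 of the 7 and by 1.08% of all genes. All mutants lay above all controls in 3 of the 7 and in 13.0% of all genes, and below them in 0 of the 7 and in 2.65%. Without control 3 the mutants were separate in 6 of the 7 (Col11a1 being the exception) and in 19.4% of all genes. Without control 1 they were separate in 4 of the 7, now with Col11a1, and in 22.8% of all genes. The median difference of all genes was 0.09, and it was -0.03 after quantile normalization. Set against the median of 0.09, the 7 differences were 0.34 (Col11a1), 0.37 (Col5a3), 0.82 (Col1a1), 0.93 (Col5a2), 0.94 (Col5a1), 0.998 (Col1a2) and 1.03 (Col3a1).

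**Figure D2:**
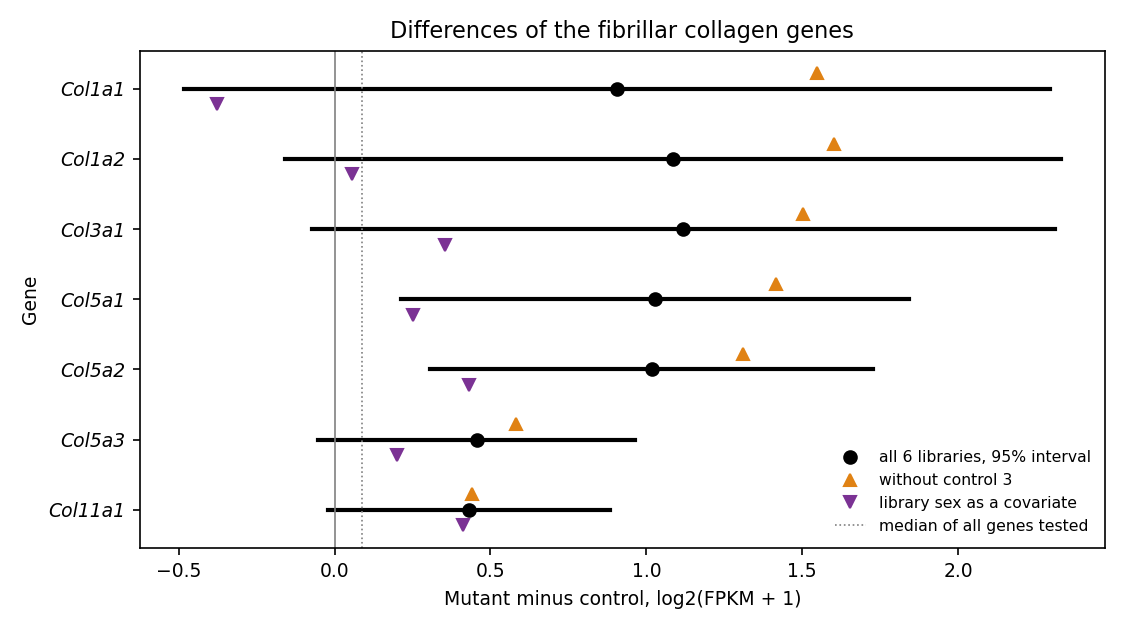
Mutant minus control difference on the log2(FPKM + 1) scale for each gene: black points and lines are the fit to all 6 libraries with its 95% interval, triangles the value without control 3 (orange, pointing up) or with library sex as a covariate (purple, pointing down), and the dotted line the median of all genes tested. Leaving out control 3 raises 7 of 7 values. The sex covariate compares the mutants with control 3 alone, so its lowering of 7 of 7 values follows from the same fact. With it the value of Col1a1 is -0.38.

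The control mice differed widely among themselves. From the lowest to the highest of the 3 mutants, levels differed 1.23-fold for Col1a1 to 1.69-fold for Col5a3. Among the 3 controls they differed 5.28-fold for Col1a1, 4.00-fold for Col1a2, 3.05-fold for Col3a1, 3.06-fold for Col5a1 and 2.30-fold for Col5a2. For the low chains Col5a3 and Col11a1 the control spread was 1.59-fold and 1.73-fold. Ranked among all genes tested, the standard deviation of Col1a1 on the log2 scale was 0.16 over the mutants, at percentile 38.2, and 1.21 over the controls, at percentile 99.8. For Col1a2, Col3a1, Col5a1 and Col5a2 the percentiles over the controls were 99.5, 99.0, 99.0 and 97.6. Control 2 was the lowest library for each of the 7 genes. Mutant 1 was the highest for 6 of them, the exception being Col1a1, where control 3 was. These libraries were also the extremes over all genes. The FPKM of all genes summed to 192880 in control 2, the lowest, and to 281766 in mutant 1, the highest. The factors of median-of-ratios scaling were likewise lowest in control 2 (0.878) and highest in mutant 1 (1.19). The part of this library-wide shift in the order of the collagens was not tested.

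Added up, the 7 chains took 2.70% to 9.76% of all gene reads. Their FPKM came to 12887, 9082 and 9046 in mutants 1 to 3, against 4821, 2549 and 10273 in controls 1 to 3. As a share of all gene reads this was 9.76%, 8.46% and 7.93% in the mutants, against 4.41%, 2.70% and 8.76% in the controls. Mutant 1 had the highest sum, control 3 lay above mutants 2 and 3, and controls 1 and 2 lay below all mutants. The log2 sum differed by 1.02 between the groups (exact two-sided permutation test, p = 0.3), and 3 mice against 3 cannot give a p below 0.1. That difference was 0.53 without control 2 and 1.54 without control 3. By type, the log2 difference was 0.98 for type I (exact p = 0.3), 1.12 for type III (exact p = 0.1) and 0.95 for types V and XI together (exact p = 0.1). The type I value was 0.46 without control 2 and 1.57 without control 3, and that of types V and XI was 0.62 without control 2. After adjustment over the 4 sums these exact p-values were 0.3, 0.3, 0.2 and 0.2. The sum of types V and XI was 391.0, 268.2 and 260.8 FPKM in the mutants, against 162.7, 98.6 and 237.8 FPKM in the controls, so every mutant lay above every control.

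For the 3 abundant chains, shares of that sum were far steadier than its size. Col1a2 took 29.1%, 28.7% and 28.4% of it in mutants 1 to 3, against 27.5%, 27.7% and 27.4% in controls 1 to 3. This narrow shift of 1.25 percentage points separated the groups (exact p = 0.1, and 0.7 adjusted over the 7 shares), though after quantile normalization it was -0.64 points. The shares of Col1a1 and Col3a1 set control 3 apart from the other libraries. Col1a1 took 30.5%, 36.5% and 35.2% in the mutants, against 34.1%, 33.4% and 43.8% in the controls. Col3a1 took 37.4%, 31.8% and 33.5% in the mutants, against 35.0%, 35.1% and 26.5% in the controls. Neither share differed between the groups beyond that spread (exact p = 0.6 and 0.7). The minor chains were minor everywhere: Col5a1 and Col5a2 each took 0.969% to 1.70%, and Col11a1 took 0.179%, 0.192% and 0.203% in mutants, against 0.382%, 0.419% and 0.140% in controls. Col5a3 took 0.176%, 0.153% and 0.149% in mutants, against 0.259%, 0.345% and 0.136% in controls. The shares of Col11a1 and Col5a3 thus varied widely among the controls.

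**Figure D3:**
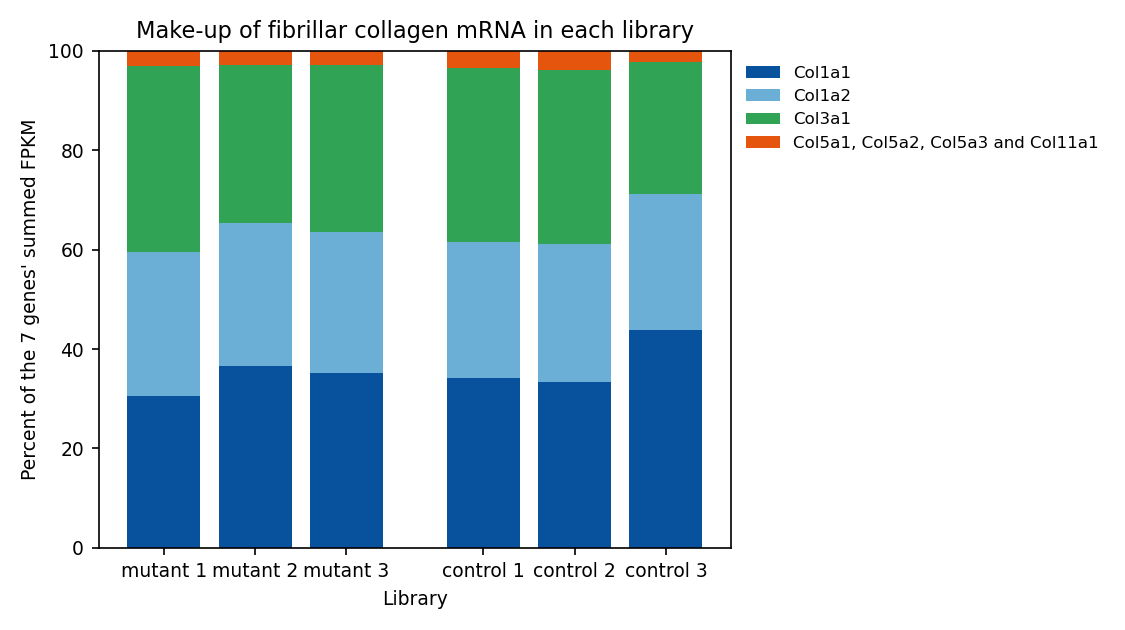
Share in percent of the summed FPKM of the 7 genes taken by Col1a1, Col1a2, Col3a1 and the 4 minor chains together, with mutants 1 to 3 left and controls 1 to 3 right. Col1a2 holds 27.4% to 29.1% of every bar, while in control 3 Col1a1 reaches 43.8% and Col3a1 is down to 26.5%.

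Ratios of chains within a library do not depend on its depth, and all 21 pairs of the 7 genes were compared. The type I molecule needs its chains in a fixed proportion, and Col1a1 over Col1a2 was 1.05, 1.27 and 1.24 in mutants 1 to 3, against 1.24, 1.21 and 1.60 in controls 1 to 3. The log2 ratio differed by -0.18 (exact p = 0.5), with overlapping groups. The level of this ratio depends on the gene lengths behind the values. With the lengths of the longest GENCODE transcripts it was 0.862, 1.05 and 1.02 in the mutants and 1.02, 0.995 and 1.31 in the controls. Col3a1 over Col1a1, a ratio often used to describe young or healing skin, was 1.23, 0.870 and 0.954 in the mutants, against 1.03, 1.05 and 0.606 in the controls. Its log2 difference was 0.21 (exact p = 0.7), and without control 3 it was -0.05, so the direction rested on that library. Col5a1 over Col5a2 was 0.907, 1.04 and 0.986 in the mutants, against 0.989, 0.829 and 1.10 in the controls, a log2 difference of 0.01 (exact p = 1.0). Both chains thus stood near equal levels in every mouse of either group.

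A pair of ratios with the alpha3 chain of type V had groups that did not overlap. Col5a3 over Col5a2 was 0.125, 0.120 and 0.117 in mutants 1 to 3, against 0.189, 0.203 and 0.140 in controls 1 to 3, and every mutant lay below every control. The log2 ratio differed by -0.54 (exact p = 0.1). Col5a3 over Col3a1 was likewise lower in each mutant, with 0.00471, 0.00482 and 0.00443 in the mutants, against 0.00739, 0.00985 and 0.00513 in the controls. There the log2 difference was -0.63 (exact p = 0.1). These 2 of 21 pairs (9.52%) were the ones with separate groups and were picked out for that, and their p-values adjusted over the 21 were 0.933, the smallest of any pair. Col11a1 over Col5a1 was 0.140, 0.145 and 0.161 in the mutants, against 0.281, 0.298 and 0.131 in the controls (log2 difference -0.58, exact p = 0.4). Here controls 1 and 2 stood near each other, and control 3 stood with the mutants. In 20 of the 21 pairs the ratio varied more among the controls than among the mutants, Col5a1 over Col3a1 being the exception.

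**Figure D4:**
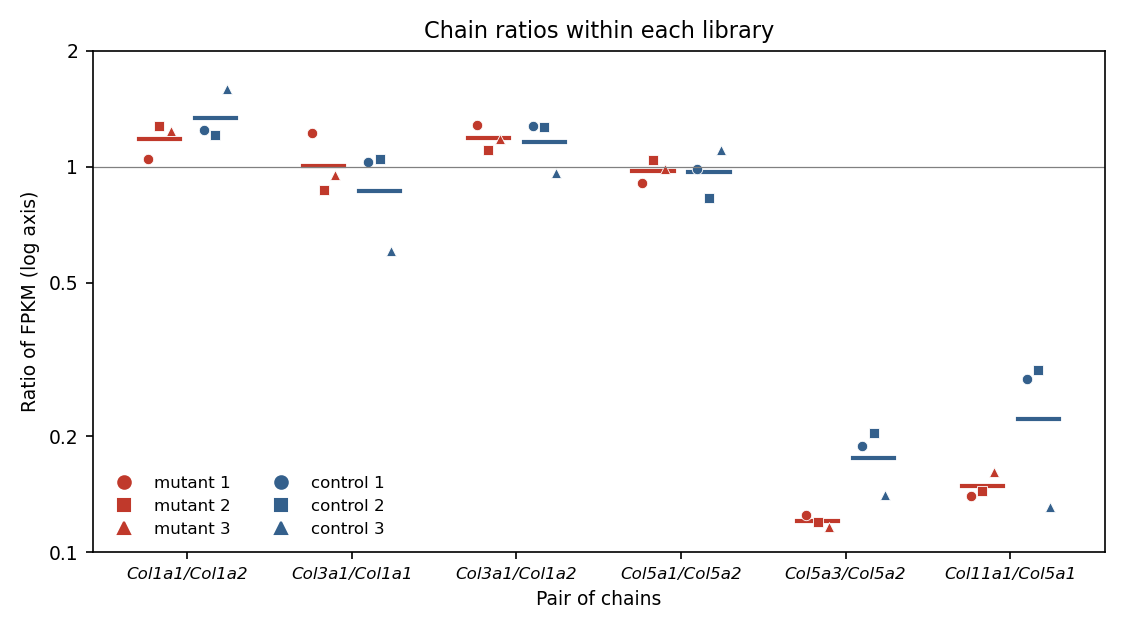
Ratio of FPKM within each library, on a log axis, for 6 pairs of chains, with mutants 1 to 3 in red left of controls 1 to 3 in blue and a horizontal line at each group's geometric mean. Col5a3 over Col5a2 is the only pair drawn in which all mutants (0.117 to 0.125) lie below all controls (0.140 to 0.203).

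The order of the 3 abundant chains depended on the gene length behind the values. In the deposited values Col3a1 was the highest of the 7 in mutant 1 and controls 1 and 2, and Col1a1 in mutants 2 and 3 and control 3. The length recovered for Col1a1 was 4698 bases, whereas its longest GENCODE transcript has 5930, and that of Col3a1 was 5564 by both. With the GENCODE lengths the level of Col1a1 is lower by a factor of 0.792, and Col3a1 would lead in 5 of the 6 libraries, all except control 3. The neighbours Col5a1 and Col5a2 changed places from library to library. Col11a1 stood above Col5a3 in all 6 libraries as deposited, but with GENCODE lengths Col5a3 stood above Col11a1 in mutant 1 and control 3. A length is shared by all libraries, so comparisons of 1 gene or 1 ratio between the groups are not touched by it. GENCODE places other genes over Col1a2, Col3a1, Col5a1, Col5a2 and Col5a3, and the strand setting of the counting is not stated, so reads from overlapping transcripts cannot be told apart from those of the collagens.

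The 4 remaining fibrillar collagen genes were at or near the floor. Col2a1, the cartilage collagen, averaged 0.0474 ± 0.0253 FPKM in mutants and 0.0439 ± 0.0268 FPKM in controls (SD, n = 3 each), from 1 to 7 reads per library. Col11a2, a type XI partner of Col11a1, was at 0.501, 0.493 and 0.461 FPKM in the mutants, against 0.692, 0.641 and 0.525 FPKM in the controls. All mutants lay below all controls there, from 44 to 66 reads per library, and the gene was under the minimum for the test. Col24a1 averaged 0.483 ± 0.0882 FPKM in mutants and 0.418 ± 0.0895 FPKM in controls. Only Col27a1 passed the minimum, at 1.15 ± 0.130 FPKM in mutants and 0.979 ± 0.0531 FPKM in controls (SD, n = 3 each), with a log2 difference of 0.12 (limma adjusted p = 0.824).

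A collagen chain passes through hydroxylation, folding and export before its propeptides are cut off and the fibril is cross-linked, and the genes for those steps were set beside the 7. None of the 6 lists held a gene that passed the adjusted threshold with limma in either direction. Over all genes tested, 71.3% had a difference above 0 and 10.5% were higher at an unadjusted p below 0.05. Limma-voom called 1.43% of all genes higher, and limma without control 3 called 1.5% higher. In the list for procollagen modification, folding and secretion, 13 of 22 tested genes had an unadjusted p below 0.05, 22 of 22 were above 0, and the median log2 difference was 0.62. Its smallest p-values belonged to Leprel4, part of the collagen lysyl hydroxylation complex (log2 difference 0.88, limma adjusted p = 0.129), to Fkbp14, a prolyl isomerase of the endoplasmic reticulum (0.88, limma adjusted p = 0.2003), and to Sec24d, a coat protein of export vesicles (0.71, limma adjusted p = 0.214). In the list for propeptide removal and cross-linking, 10 of 11 tested genes had an unadjusted p below 0.05, with a median of 0.83. Adamts2, the procollagen N-proteinase, was at 49.3, 38.5 and 27.6 FPKM in the mutants, against 18.0, 10.5 and 23.3 FPKM in the controls (log2 difference 1.14, limma adjusted p = 0.160). All its mutant values lay above its control values. The cross-linking oxidases Loxl2 and Loxl4 had log2 differences of 0.99 and 0.81 (limma adjusted p = 0.135 and 0.134). Limma-voom called 0 of the 22 and 2 of the 11, Loxl2 and Loxl4. Without control 3 limma called 5 of the 22 and 4 of the 11 higher, whereas the 7 collagens stayed at 0.

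Partners on the fibril surface came nearest to the threshold. Of 15 tested, 11 had an unadjusted p below 0.05 and 15 were above 0, with a median log2 difference of 0.77. Thbs2, a matricellular protein needed for normal fibril shape in mouse skin, was at 48.9, 29.1 and 30.3 FPKM in the mutants, against 13.4, 9.17 and 13.1 FPKM in the controls. Its log2 difference of 1.50 just missed (limma adjusted p = 0.0505). The small leucine-rich proteoglycans Lum and Aspn had differences of 1.50 and 1.37 (limma adjusted p = 0.0845 and 0.0803). In Thbs2 control 3 lay between the other controls, unlike in the type I genes. With limma-voom, Dcn, Bgn, Lum, Aspn and Thbs2 passed, where Dcn and Bgn are named for that alone. Without control 3, Lum, Aspn, Tnxb and Thbs2 passed (limma), with Tnxb named for that alone.

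Collagen receptors stood near the median of all genes, at a median of 0.11 over 7 tested genes, of which 2 had an unadjusted p below 0.05. These were Mrc2, an endocytic receptor for collagen (0.81, limma adjusted p = 0.292), and the receptor kinase Ddr2 (0.38, limma adjusted p = 0.436). The third by p was Itgb1, the beta chain of the collagen-binding integrins (0.34, limma adjusted p = 0.568). The collagen breakdown list also holds the metalloproteinase inhibitors Timp1, Timp2 and Timp3. Its median over 9 tested genes was 0.61, the value of Timp2, so it is not a value for the proteases alone. Of the 9 genes, 5 had an unadjusted p below 0.05. They were led by the collagen-degrading protease Ctsk, with a difference of 1.22 (limma adjusted p = 0.114), followed by Mmp2 with 1.01 (limma adjusted p = 0.140) and the membrane-bound Mmp14 with 0.66 (limma adjusted p = 0.292). Ctsk and Mmp2 passed with limma-voom. Transcription regulators of collagen genes had a median of 0.17 over 19 tested genes, and 6 had an unadjusted p below 0.05. Among them were Fli1, which represses type I collagen genes (0.54, limma adjusted p = 0.170), the ligand Tgfb2 (0.61, limma adjusted p = 0.227) and scleraxis, Scx (0.48, limma adjusted p = 0.250). Limma-voom called 0 of the receptors and 0 of the regulators. Without control 3 limma called 1 receptor, 2 breakdown genes and 2 regulators higher.

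**Figure D5:**
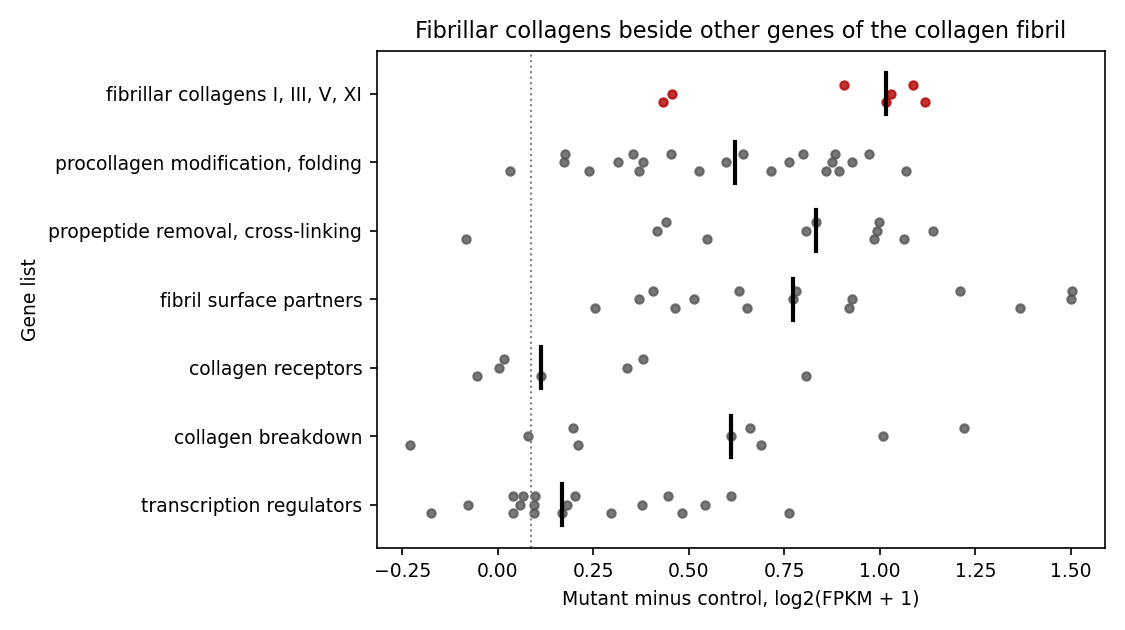
Mutant minus control difference on the log2(FPKM + 1) scale for the tested genes of each list, with the 7 fibrillar collagens in red on top, a black bar at each list's median and a dotted line at the median of all genes (0.09). The medians run from 0.11 for collagen receptors to 1.02 for the fibrillar collagens. The collagen breakdown list includes the inhibitors Timp1, Timp2 and Timp3.

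Genes whose levels followed a collagen most closely over the 6 libraries were sought among 7371 genes whose mean was 5 FPKM or more, by Pearson's r of log2(FPKM + 1). Such values describe these 6 libraries, which share depth and tissue make-up across genes, and carry no test. Nearest to Col3a1 were Fkbp9, a prolyl isomerase of the endoplasmic reticulum (r = 0.9996), Fndc3b (r = 0.999) and Serpinh1, the collagen chaperone HSP47 (r = 0.999). Serpinh1 was at 231.5, 156.7 and 156.2 FPKM in the mutants, against 101.0, 61.6 and 139.8 FPKM in the controls. Nearest to Col1a2 were Cgref1, Atf5 and Lox, the lysyl oxidase, each with r of 0.996 or above. Col1a1 had looser companions, Gpr133 (r = 0.991), Pkd1 (r = 0.988) and Gfpt1 (r = 0.987). For Col5a1 they were Rab3il1, Lman1 and Copz2 (r = 0.999, 0.998 and 0.997), of which Lman1 is a cargo receptor and Copz2 a coat subunit of the secretory pathway. For Col5a2 they were Svep1, Pofut2 and Man1a (r = 0.999, 0.997 and 0.997), and for Col5a3 Kdelc2, Myo1c and Adamts12 (r = 0.998, 0.995 and 0.994). Those of Col11a1 were Chd3, Uhrf2 and Arrb1 (r = 0.995, 0.994 and 0.994). To the mean of all 7 the 10 nearest were Cxcr7, Atg9a, Stab1, Fkbp9, Grb10, Serpinh1, Rcn3, Col6a3, Kdelr2 and Gstk1, with r from 0.996 to 0.999. Among the 7 themselves, r ran from 0.635 between Col1a1 and Col11a1 to 0.994 between Col1a2 and Col5a1.

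Markers of dermal fibroblasts, the cells that make the fibrils, were set beside the collagens. The summed FPKM of 10 dermal fibroblast markers was 1313, 765 and 839.5 in mutants 1 to 3, against 512, 304 and 505 in controls 1 to 3. All 10 had a difference above 0, 8 had separate groups, and 0 passed the adjusted threshold (limma, smallest adjusted p = 0.0744), with 9 at an unadjusted p below 0.05 and 6 called by limma-voom. Over all genes tested, 71.3% were above 0, and in 13.0% all mutants lay above all controls. An unadjusted p below 0.05 in the higher direction was reached by 10.5%, and limma-voom called 1.43% higher. Dcn, Lum and Dpt are in the fibroblast list and in the list of fibril partners as well. In bulk dermis more fibroblasts and more collagen mRNA per fibroblast cannot be told apart. The marker sum is weighted to abundant genes, as 1 of the 10 markers averaged 424 FPKM over the 6 libraries. Divided by the fibroblast marker sum, the sum of the 7 collagens was 9.82, 11.9 and 10.8 in the mutants, against 9.42, 8.37 and 20.4 in the controls. On this scale the groups overlapped, with a log2 difference of -0.12 (exact p = 1.0) that became 0.28 without control 3, whose collagen sum was high for its fibroblast markers.

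Markers of other cells differed unevenly. Macrophage markers summed to 178 to 335 FPKM in mutants and 71.1 to 119 FPKM in controls. Of 7 tested, 7 were above 0, 7 had an unadjusted p below 0.05 (limma), 6 had separate groups and limma-voom called 5. Over all genes tested these shares were 71.3%, 10.5%, 13.0% and 1.43%. The median log2 difference was 1.04, against 0.84 for the fibroblast markers, and 1 gene passed the adjusted threshold. That gene was Fcer1g, an Fc receptor subunit, with a log2 difference of 1.30 (limma adjusted p = 0.0242). Adipocyte markers summed to 405 to 628 FPKM in mutants and 352 to 396 FPKM in controls, with 7 of 8 above 0 and 0 past the threshold (4 at an unadjusted p below 0.05 with limma, 1 called by limma-voom). Skeletal muscle markers were uneven among mice, at 615 to 1330 FPKM in mutants and 304 to 1236 FPKM in controls. Control 2, the lowest library for the 7 collagens, had the lowest sum for muscle and for every other marker list except hair follicle. Hair follicle markers summed to 4896, 2459 and 4171 FPKM in mutants 1 to 3 and 4253 to 4320 FPKM in controls, with 0 of 8 above 0. Mutant 2 carried most of this. Against the control mean, the median marker on the log2 scale was at 0.03, -0.78 and -0.08 in mutants 1 to 3. Keratinocyte markers summed to 786 to 897 FPKM in mutants and 627 to 821 FPKM in controls, so epidermal and follicle RNA was present in every library. Median log2 differences were 0.21 for endothelial, 0.32 for smooth muscle and pericyte, 0.38 for tendon and 0.18 for Schwann cell markers. The part of these cells in the collagen levels was not tested.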

How the data were processed

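RNA from ventral dermis of 3 mutant and 3 control mice was made into TruSeq Stranded Total RNA libraries, per the labels' protocols. GSNAP, HTSeq and mm10 are named in the submitters' processing notes, with neither versions nor counting options. The authors deposited 1 FPKM value per gene and library.

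FPKM was compared as log2(FPKM + 1), which understates differences of low genes, for the 12560 genes that averaged 1 FPKM or more. The test was limma 3.58.1 (R 4.3.3) with an intensity trend, two-sided, with Benjamini-Hochberg adjustment over all genes, a threshold of 0.05 and no covariate. Sums, shares and ratios were compared by exact two-sided permutation tests over libraries (scipy 1.17.1). The labels name separate mice, and chi-square tests set every library apart from the others of its group beyond sampling noise (13.4 to 67.0 per degree of freedom).

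Within a gene, values were whole multiples of a step, which gave reads, gene length and depth for 21592 of 21592 genes above 0. On simulated data 98.9% of 4099 genes were read back exactly. A gene whose reads share a divisor would come out too low. The depth behind FPKM was 19569728, 21344136 and 21276724 fragments in mutants 1 to 3 and 17024412, 15861348 and 14945966 in controls 1 to 3.

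Gene positions are from GENCODE M21 (GRCm38). Named were the 7 genes, the 4 other fibrillar collagens, from each list the 3 tested genes of smallest unadjusted p and any past the threshold, and the genes most alike (3 per collagen, 10 for their mean, small RNA symbols left out). The 7 genes and all lists were chosen with earlier results of these data known. The tests by limma-voom, the sum per fibroblast markers, the ratios of Col5a3 to Col3a1 and to Col5a2, and the separation without single libraries were chosen after seeing the data. Other alternatives were a pseudocount of 0.1, no minimum or a minimum of 5 FPKM, other scalings, sex as a covariate, no trend, a replicate block and leaving out each library.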

Additional observations from a re-analysis of the deposited data

How the results depend on the processing

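For the 7 collagens, the adjusted call did not differ from the reported one under any of the 15 alternatives each, with adjusted p from 0.0572 to 0.9999 (limma). Their differences kept their sign except that of Col1a1, which was -0.38 with library sex as a covariate, a fit in which control 3 is the only control of the mutants' sex. The count of all genes called higher was 9 with a pseudocount of 0.1, 4 without a minimum, 28 with median-of-ratios scaling, 32 with quantile normalization, 10 with the sex covariate, 10 without the trend and 179 with limma-voom. It was 3 to 189 when each library was left out. Lower calls numbered 1 with the sex covariate, 3 with limma-voom and 0 to 4 with a library left out. The sex covariate took the list medians to 0.20 for procollagen modification, 0.30 for cross-linking and 0.21 for breakdown, and a minimum of 5 FPKM took that of receptors to 0.34. After quantile normalization the difference was -0.643 points for the share of Col1a2, 0.153 points for that of Col5a2 and 0.11 for the log2 ratio of Col5a2 to Col3a1. The companion genes named passed the threshold, in the reported direction, in 24 combinations of gene and alternative, mostly without control 3 or with limma-voom. The causes were not tested.

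With a library left out, members with separate groups numbered 3 to 6, beside 13.8% to 35.9% of all genes. The share of 35.9% came without mutant 2, where 3 members were separate. With a library left out, differences in share of the collagen sum ran from -4.89 to 0.281 points for Col1a1. They ran from -0.822 to 3.45 points for Col3a1, -0.0963 to 0.0725 for Col5a1 and -0.217 to 0.148 for Col5a2. Log2 ratio differences ran from -0.045 to 0.35 for Col3a1/Col1a1, -0.10 to 0.10 for Col3a1/Col1a2, -0.10 to 0.11 for Col5a1/Col5a2, -0.18 to 0.028 for Col5a2/Col3a1 and -0.11 to 0.28 for Col5a1/Col1a1. The sum per fibroblast markers ran from -0.36 to 0.28.

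Mutants and controls share replicate numbers. Deviations from the group mean in libraries of the same number had r = 0.00159, 0.0367 and -0.0819. In libraries of different number r ran from -0.273 to 0.284. Deviations within so small a group must offset each other, so whether the numbers pair the libraries cannot be decided from these values. The replicate block gave 67 higher and 1 lower calls and 0 of the 7 collagens.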
